A study of Mus musculus with 16 samples.

Results

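Among 500-bp tiles of the mouse autosomes measured by reduced representation bisulphite sequencing (RRBS) at each of 3 stages of oocyte growth, 691 of 27949 tiles (2.47%) gained DNA methylation early. These early-gaining tiles were chosen by their RRBS coverage and methylation levels alone. A tile of the fixed grid on chromosomes 1 to 19 was measured when at least 5 of its CpG cytosines had at least 5 methylation calls in each of the 6 RRBS libraries, and its level was the mean percent methylation over these cytosines. It was early-gaining when this level was under 10% in both libraries of 40–45 μm oocytes and at least 25% in both libraries of 50–55 μm oocytes. The values at 40–45 and 50–55 μm therefore define the tiles and are given as a description. The levels at 60–65 μm, the gene annotation, the sequence and the RNA played no part in the choice. The 60–65 μm RRBS libraries entered it only through the required coverage.

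The study followed the arrival of DNA methylation in growing oocytes of wild-type C57BL/6 mice (C57BL/6Babr in the methods), with no transgene, deletion or treatment in any group. Oocytes were picked by measured diameter from digested ovaries and pooled, at postnatal days 7 to 12 for 40–45 μm, 9 to 14 for 50–55 μm and 13 to 16 for 60–65 μm, so that diameter and the age of the mice rise together and cannot be told apart. RRBS was made in duplicate, A and B, for these 3 classes. Whole-genome post-bisulphite adapter tagging (PBAT) was made once, without a replicate, for the 60–65 μm class. RNA sequencing was made in duplicate for these classes and for 10–30 μm oocytes of postnatal days 5 to 7, and once for germinal vesicle (GV) oocytes of postnatal day 20. The labels do not say whether A and B came from separate mice, so the spread between them may be technical, and in a pool a level of methylation does not separate a few fully methylated oocytes from partial methylation in all of them.

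Female germ cells enter the growth phase with little DNA methylation, and the mature pattern is laid down while the oocyte enlarges, before fertilisation. The methyltransferase DNMT3A, with its catalytically inactive partner DNMT3L, places methyl groups on CpG sites where histone H3 is unmethylated at lysine 4 and where transcription has marked the chromatin with methylation of H3 lysine 36. Much of the methylation of the mature oocyte accordingly lies in the bodies of transcribed genes, and active CpG-rich gene starts stay largely unmethylated. Imprinted genes with maternal methylation have differentially methylated regions of germline origin (gDMRs), which acquire their mark in the same period.

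Before the results, 1 library has to be described. The RRBS libraries held 29275627 to 55938194 methylation calls and 594179 to 910358 positions with at least 5 calls. In the 50–55 μm library A, 48.3% of the listed positions had only 1 to 4 calls, against 19.1% to 30.1% in the other RRBS libraries, and these shallow positions had a mean level of 50.1%, against 3.47% to 17.3%. Only positions with at least 5 calls entered the tiles, where the mean over all positions was 4.63% in this library and 6.91% in library B of the same class. The main values are given with and without this library. In the early-gaining tiles the median number of calls per tile lay between 334 and 584 in the RRBS libraries, and it was 145.5 in PBAT. Intervals on shares are Wilson 95% intervals over tiles, which cover counting error only. They take tiles as independent, although tiles share genes and libraries. RRBS reads also carry no molecular identifiers.

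The sequences of some early-gaining tiles show what kind of DNA this was. Each line gives 200 bases of the RefSeq genome sequence of GRCm38, forward strand, taken where the most cytosines of the tile were covered in all 6 RRBS libraries, with every CpG in capitals. The first 2 come from the tiles of the genes Hace1 and Nat6, with high levels at 60–65 μm, and the next 2 from those of Ahdc1 and Tifab, with low levels. The 3 after them come from tiles in genes listed for a maternal gDMR, and these tiles need not lie in the gDMR itself. The last is no early-gaining tile. It is the start of Hace1, shown for contrast and chosen after its values were seen.
Hace1 at chr10:45632709-45632908: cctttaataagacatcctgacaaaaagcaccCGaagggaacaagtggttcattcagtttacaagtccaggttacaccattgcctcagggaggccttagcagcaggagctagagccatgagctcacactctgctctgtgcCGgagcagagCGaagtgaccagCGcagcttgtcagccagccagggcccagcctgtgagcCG
Nat6 at chr9:107583292-107583491: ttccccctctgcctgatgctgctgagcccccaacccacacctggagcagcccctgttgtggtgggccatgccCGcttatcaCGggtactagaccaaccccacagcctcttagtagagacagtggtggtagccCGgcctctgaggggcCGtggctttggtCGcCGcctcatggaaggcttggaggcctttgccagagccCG
Ahdc1 at chr4:133063004-133063203: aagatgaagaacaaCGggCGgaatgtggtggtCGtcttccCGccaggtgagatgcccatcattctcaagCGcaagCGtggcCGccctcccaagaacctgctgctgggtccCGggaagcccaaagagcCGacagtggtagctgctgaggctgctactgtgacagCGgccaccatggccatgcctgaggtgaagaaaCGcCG
Tifab at chr13:56176501-56176700: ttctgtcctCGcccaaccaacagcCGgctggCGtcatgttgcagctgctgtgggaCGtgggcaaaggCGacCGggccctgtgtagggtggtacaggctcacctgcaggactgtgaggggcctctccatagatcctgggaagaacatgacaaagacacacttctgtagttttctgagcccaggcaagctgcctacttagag
Kcnq1 at chr7:143380535-143380734: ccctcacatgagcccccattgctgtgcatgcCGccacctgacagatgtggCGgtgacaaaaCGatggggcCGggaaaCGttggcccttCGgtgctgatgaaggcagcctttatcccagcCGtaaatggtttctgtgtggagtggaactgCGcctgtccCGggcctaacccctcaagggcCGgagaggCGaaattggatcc
Trappc9 at chr15:72913210-72913409: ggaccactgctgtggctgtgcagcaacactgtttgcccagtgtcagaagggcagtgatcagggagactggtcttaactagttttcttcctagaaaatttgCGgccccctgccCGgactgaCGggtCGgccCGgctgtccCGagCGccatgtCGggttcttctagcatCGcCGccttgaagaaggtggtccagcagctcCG
Socs5 at chr17:87125501-87125700: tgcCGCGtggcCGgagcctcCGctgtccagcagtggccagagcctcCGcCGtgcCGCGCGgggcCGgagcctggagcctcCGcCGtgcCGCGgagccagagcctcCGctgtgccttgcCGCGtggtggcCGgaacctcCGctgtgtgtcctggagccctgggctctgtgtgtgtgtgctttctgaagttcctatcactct
Hace1 start at chr10:45578151-45578350: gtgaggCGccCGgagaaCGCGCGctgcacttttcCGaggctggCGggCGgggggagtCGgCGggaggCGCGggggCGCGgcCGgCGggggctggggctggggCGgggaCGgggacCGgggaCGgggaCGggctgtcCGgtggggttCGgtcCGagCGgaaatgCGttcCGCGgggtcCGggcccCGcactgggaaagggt
These stretches held between 5 and 19 CpGs, and those of Hace1, Nat6 and Tifab had 5 to 7. The start of Hace1 held 30 in the same length. Its whole tile, at chr10:45578001-45578500, had 67 CpGs and levels of 0.57% and 0.14% at 40–45 μm, then 0.35% and 4.97% at 50–55 μm, then 1.97% and 1.14% in the 60–65 μm libraries. The early-gaining tile of the same gene, centred 54922 bp from the annotated gene start, lay in an intron and had 11 CpGs.

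Across all 691 early-gaining tiles the level rose from near 0 through the 3 size classes. At 40–45 μm the median was 3.24% in library A (range 0% to 9.93%) and 2.08% in library B (0% to 9.81%), both under the 10% the choice required. At 50–55 μm it was 34.8% in A (25% to 70.9%) and 38.8% in B (25% to 97.0%). These values chose the tiles and are not a finding.

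The 60–65 μm libraries, whose levels had no part in the choice, placed the tiles at a median of 65.9% in A (range 32.9% to 97.3%, SD over tiles 9.72) and 67.2% in B (35.7% to 92.9%, SD 9.97), as the plot of methylation levels by library shows. The medians over all measured tiles stayed between 0.32% and 0.75% in the 6 RRBS libraries. All 691 tiles reached 25% in both 60–65 μm libraries, against 8.80% of all measured tiles. The level was at least 50% in both for 644 of the early-gaining tiles (93.2%, interval 91.1% to 94.8%) and at least 75% in both for 79 (11.4%, interval 9.27% to 14.02%).

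**Figure D1:**
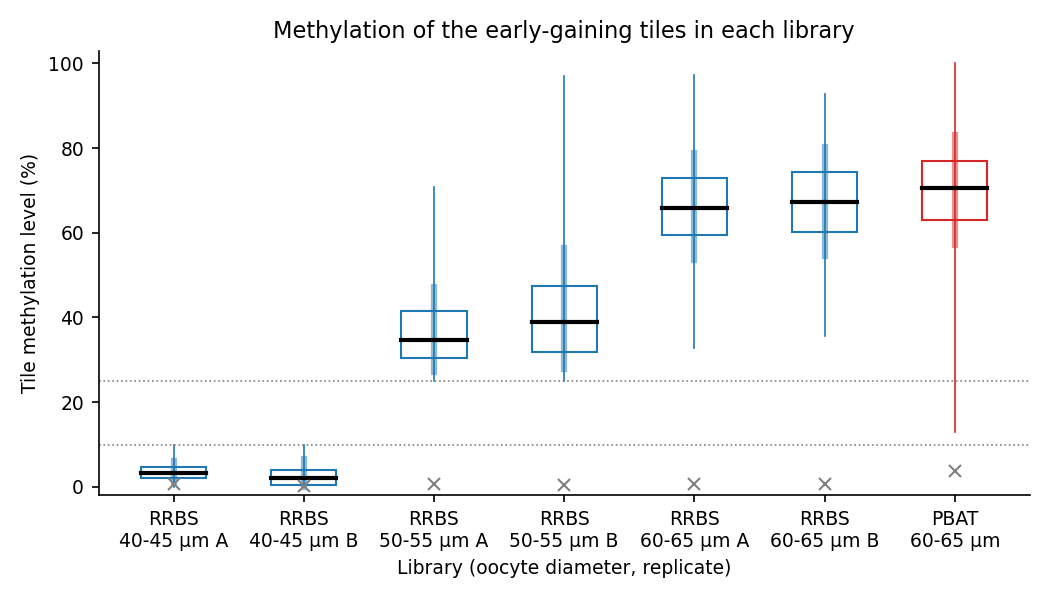
Methylation level (%) of the early-gaining tiles in each RRBS and PBAT library. Boxes span the quartiles, black lines are medians, thick bars span the 10th to 90th percentiles, thin lines the full range, grey crosses the median of all measured tiles, and dotted lines the limits of 10% and 25%. The medians lie at 2.08% and 3.24%, at 34.8% and 38.8%, at 65.9% and 67.2%, and at 70.6% in PBAT.

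Both 60–65 μm libraries were above both 50–55 μm libraries in 660 of the 691 tiles (95.5%), and the same order held in 22.8% of all measured tiles. The reverse order held in 0 of the 691, for which the interval reaches 0.55%, and in 11.1% of all measured tiles. The 50–55 μm values are those that chose the tiles, and with 2 libraries a class an exact test of a single tile cannot pass a threshold of 0.05, so this count is a description. The class mean rose by a median of 28.6 percentage points from 50–55 to 60–65 μm, with the central 80% of tiles between 18.1 and 38.0 points. The widest fall, by 19.4 points, was in a tile of Scaf1, whose product is a splicing-associated protein, and it rested on 66 calls in 50–55 μm library B. That library gave 97.0% there, library A gave 44.5%, and the 60–65 μm libraries gave 46.4% and 56.3%.

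The level of a tile at 60–65 μm was related between the libraries. Over the 691 tiles the levels in A and B correlated with Pearson's r = 0.64 (Spearman's rho = 0.63) at 60–65 μm. The values were r = 0.38 (rho = 0.35) at 50–55 μm and r = 0.04 (rho = 0.07) at 40–45 μm, where the choice had limited the range in both libraries, to at least 25% and to below 10%, so they cannot be set against the value at 60–65 μm. These are correlations across tiles, which share the depth and base composition of their sequence and are not independent replicates.

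The single PBAT library, made from whole-genome fragments rather than from restriction fragments, gave similar levels. The median was 70.6% (quartiles 63.0% and 77.1%, range 12.96% to 100%) over 690 tiles with a value, and it was 3.83% over all measured tiles. PBAT reached 50% in 668 of the 690 (96.8%, interval 95.2% to 97.9%), against 6.57% of all measured tiles. It was above the mean of the 60–65 μm RRBS libraries in 436 of 690, by a median of 3.45 points over all 690 (quartiles -3.01 and 10.3). Tile by tile the 2 methods followed each other loosely, with r = 0.42 (rho = 0.44) across tiles. The lowest PBAT value, 12.96%, came from 15 calls in a tile of 9430070O13Rik, in which the RRBS libraries gave 57.3% and 75.1%, and the values of 100% came from 16 calls in Fndc3b and 10 in Lrrc49.

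The methylation around these tiles was not limited to 500 bp. At 500 bp on either side the median PBAT level was 68.3%, at 2 kb it was 65.0% upstream and 65.2% downstream by coordinate, at 5 kb 55.0% and 58.8%, and at 10 kb 45.4% and 48.6%. For comparison, tiles that gained more slowly, those under 10% in both 40–45 μm, under 25% in both 50–55 μm and at least 25% in both 60–65 μm libraries, had a median PBAT level of 49.8% at the centre, and of 33.5% and 35.8% at 10 kb. This comparison set of 604 tiles was defined after the data were seen, since a stricter late set, still under 10% in both 50–55 μm libraries, held only 54 tiles. Low tiles inside genes, under 10% in all 6 RRBS libraries, had 3.72% at the centre.

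**Figure D2:**
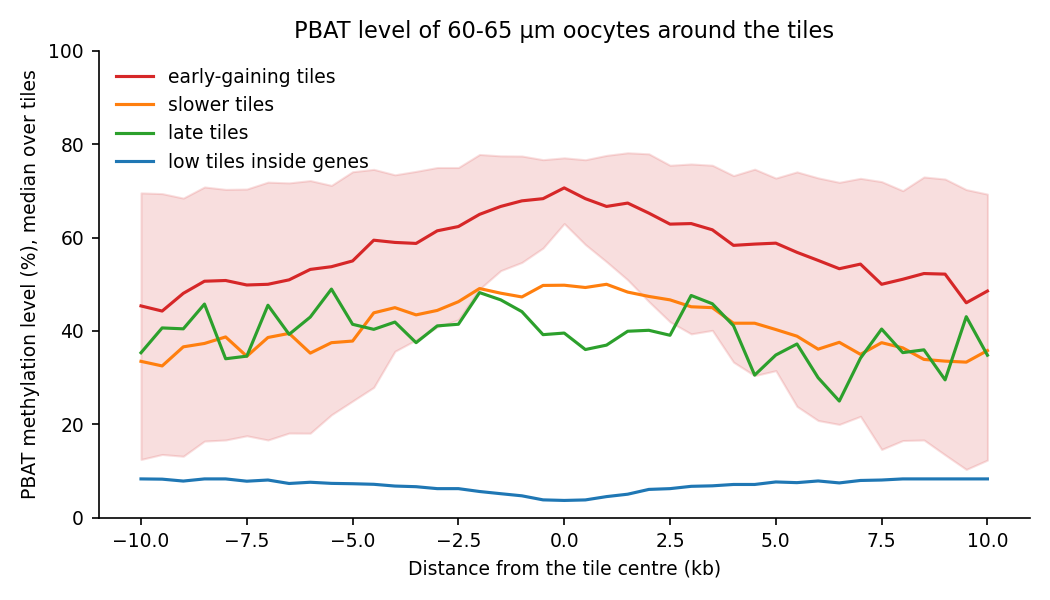
Median PBAT methylation level (%) of 60–65 μm oocytes in 500-bp steps against the distance (kb) from the centre of early-gaining, slower, late and low tiles. The shaded band spans the quartiles of the early-gaining tiles, whose median falls from 70.6% at the centre to 45.4% and 48.6% at 10 kb, above the medians of the slower, late and low tiles at both places.

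Few early-gaining tiles adjoined each other on the grid. The 691 tiles formed 671 runs, of which 651 were single tiles and 20 were pairs. Of 70 adjoining tiles that were measured, 40 were early-gaining (57.1%), which are the members of the 20 pairs counted from both sides, and 2.47% of all measured tiles were early-gaining. A further 8 were slower, 1 was late and 0 were low, and the rest belonged to none of these sets. Adjoining tiles share loci and libraries and were counted by the rule that chose the tiles, so these counts are a description.

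Nearly all early-gaining tiles lay within genes and away from their starts. By the gene spans of the RNA table, 639 of 691 (92.5%, interval 90.3% to 94.2%) lay inside a gene more than 1 kb from any gene start, against 29.2% of all measured tiles, 82.9% of the slower tiles and 75.9% of the late tiles. Within 1 kb of a gene start lay 21 (3.04%, interval 1.996% to 4.60%), against 57.1% of all measured tiles, and 31 (4.49%) lay between genes. No test was made of these shares, because tiles of 1 gene share their source. By GENCODE exons, 357 tile centres (51.7%) were intronic, 265 (38.4%) in coding exons, 45 in untranslated exons, 9 in exons without a coding sequence and 15 between genes. Coding exons held 18.0% of all measured tiles and 29.6% of the low tiles inside genes. The slower tiles were close to the early-gaining ones, with 34.4% in coding exons and 49.7% in introns.

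The few tiles near starts or outside genes had levels like the others. The median 60–65 μm RRBS level was 66.6% inside genes, 66.9% at gene starts and 66.0% between genes, and by exon class it was 67.1% in coding exons, 66.5% in introns and 64.0% in untranslated exons. Of the 31 tiles between genes of the RNA table, some lay in GENCODE genes that extend beyond these spans, among them tiles of Tnrc18 and Pou2f2.

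Along the host gene the tiles lay towards its end, as the plot of their place along the gene shows. Inside genes the median place was 71.3% of the gene's length from its start (quartiles 49.0% and 87.4%), against 39.3% for low tiles and 52.3% for all measured tiles inside genes. The first 10% of the gene's length held 9 of 639 (1.41%) and the last 10% held 128 (20.03%). For all measured tiles inside genes these shares were 15.5% and 14.5%, and for low tiles 22.0% and 10.2%. The median distance from the host's start was 29911 bp, against 7676 bp for low tiles. The slower tiles had a median place of 70.1%, so that the early-gaining and the slower tiles lay at similar places.

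**Figure D3:**
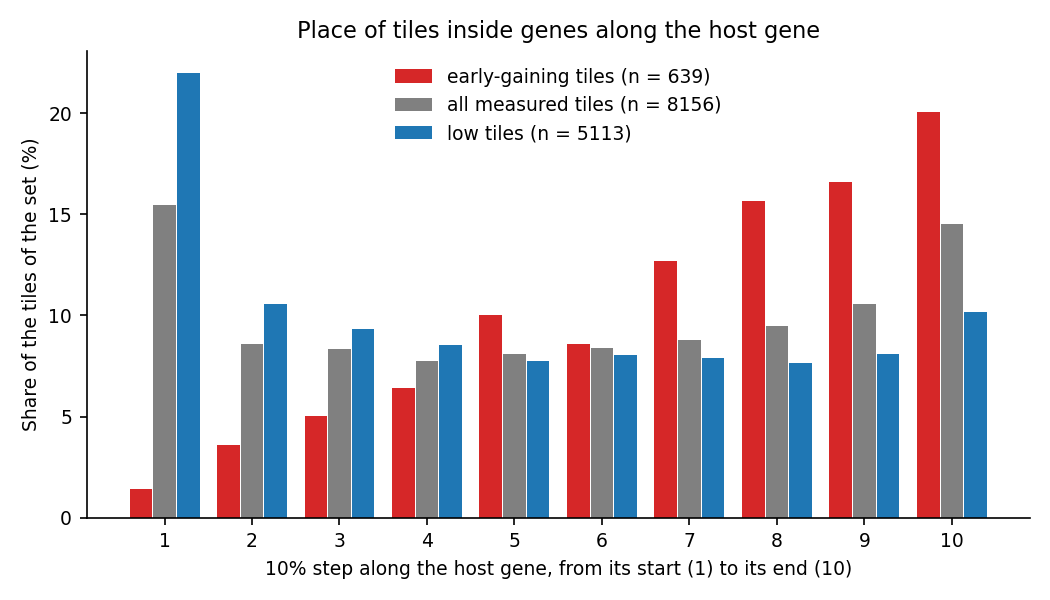
Share (%) of the tiles inside genes that lie in each 10% of the length of their host gene, from its start (1) to its end (10), for early-gaining tiles (n = 639), all measured tiles (n = 8156) and low tiles (n = 5113). The early-gaining share climbs from 1.41% in the first step to 20.03% in the last, and the low tiles have 22.0% in the first.

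Of the 562 host genes, 447 had a measured tile at their start. That start tile was below 10% in all 6 RRBS libraries in 425 (95.1%), with a median of 0.58% at 60–65 μm and of 3.40% in PBAT and a median of 48 CpGs. Of all measured tiles at gene starts 15488 of 15967 were low, with medians of 0.58% and 3.16%. Every early-gaining tile was above the start tile in 441 of the 447 genes. The choice of the tiles and the low level of most gene starts nearly fix this order, so it is no finding. In 6 genes the start tile was itself early-gaining. These start tiles were compared after the data had been seen.

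The early-gaining tiles were poorer in CpG than most of what RRBS measures. They held a median of 15 CpGs (quartiles 12 and 19, range 5 to 71), against 33 in all measured tiles, 29 in low tiles inside genes, 16.5 in slower and 20.5 in late tiles. The median GC content was 56.0%, against 62.0%, and the CpG observed over expected ratio was 0.41, against 0.72. Soft-masked repeats covered at least 50% of the length of 8 (1.16%), against 1.32% of slower and 0.63% of low tiles. Over all measured tiles it was 2.93%. Of tiles with under 10 CpGs 8.75% were early-gaining, of those with 10 to 14 8.66%, of those with 15 to 19 7.50%, of those with 20 to 29 2.24%, and of those with 30 or more 0.29% (46 of 16065).

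Among the early-gaining tiles, whose range of levels the choice had limited, CpG number and level moved little together. The median 60–65 μm level was 68.4% in those with under 10 CpGs and 63.4% in those with 30 or more, and the PBAT medians were 72.8% and 63.5%. Across tiles CpG number correlated with the 60–65 μm level at r = -0.11 (rho = -0.10) and with PBAT at r = -0.20 (rho = -0.19). Searched on both strands, the string CGCGC occurred in 17.8% of the early-gaining and 64.6% of all measured tiles, GGGCGG in 24.6% and 63.5%, and TGCCGC in 16.2% and 32.2%. The slower tiles, with 26.8% for CGCGC, 32.1% for GGGCGG and 16.9% for TGCCGC, were much closer to the early-gaining ones. Each of these strings contains a CpG, so it is rarer where CpGs are few. CCGG, the site of the MspI enzyme that cuts DNA for RRBS, was in 100% of the early-gaining tiles and in 27948 of all 27949.

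The genes that held early-gaining tiles were expressed in the youngest oocytes measured. The median over the 562 host genes, in RPKM (reads per exon length and per library total), was 1.77 and 2.24 in the 10–30 μm libraries A and B, 1.97 and 2.19 at 40–45 μm, then 2.19 and 2.38 at 50–55 μm. The 60–65 μm libraries gave 2.48 and 2.34, and the GV sample 2.40. The host genes of all measured tiles had medians of 1.27 RPKM at 10–30 μm and 1.26 at 60–65 μm, as means of A and B, and those of low tiles inside genes had 0.11 and 0.12. The hosts of the slower tiles were at 1.98 RPKM at 10–30 μm and 2.86 at 60–65 μm. Both 10–30 μm libraries gave at least 1 RPKM in 383 of the 562 hosts (68.1%), against 52.0% of the hosts of all measured tiles. The mean over the 8 growing-oocyte libraries was below 0.5 RPKM in 70 hosts (12.5%, interval 9.98% to 15.4%), against 38.9% of the hosts of all measured tiles, 22.3% for slower and 62.8% for low tiles inside genes. The hosts were long, with a median span of 46824 bp, against 26378 bp for the hosts of all measured tiles. Those of slower tiles (42949 bp) and late tiles (48791 bp) were of similar length. Where 1 tile lay in several overlapping genes, as 38 did, reads of these genes may not be separable.

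The share of tiles that were early-gaining differed with the host's RNA level, as the plot by host level and CpG number shows. Of 3096 measured tiles inside genes below 0.1 RPKM, 12 were early-gaining (0.39%). The share was 5.59% at 0.1 to 0.5 RPKM, 11.5% at 0.5 to 1, 16.02% at 1 to 2 and 17.1% at 2 to 5, and it was 13.8% at 5 to 10 and 11.4% at 10 or more. Over all tiles inside genes it was 7.83%. Within ranges of CpG number the share was also lowest below 0.1 RPKM, at 0.97% for 10 to 14 and 0.13% for 20 to 29 CpGs, but above 0.1 RPKM it did not follow the RNA level in order. Among tiles of 10 to 14 CpGs it was 20.8% at 0.5 to 1 RPKM, 18.5% at 1 to 2 and 30.6% at 2 to 5. The hosts of early-gaining and of low tiles differed within these ranges. Among tiles of 10 to 14 CpGs the hosts of early-gaining tiles had a median of 2.35 RPKM and those of low tiles 0.04. Among tiles of 20 to 29 CpGs the medians were 2.04 and 0.08. The slower tiles of these CpG numbers had hosts at 2.33 and 2.17 RPKM, close to the early-gaining ones.

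**Figure D4:**
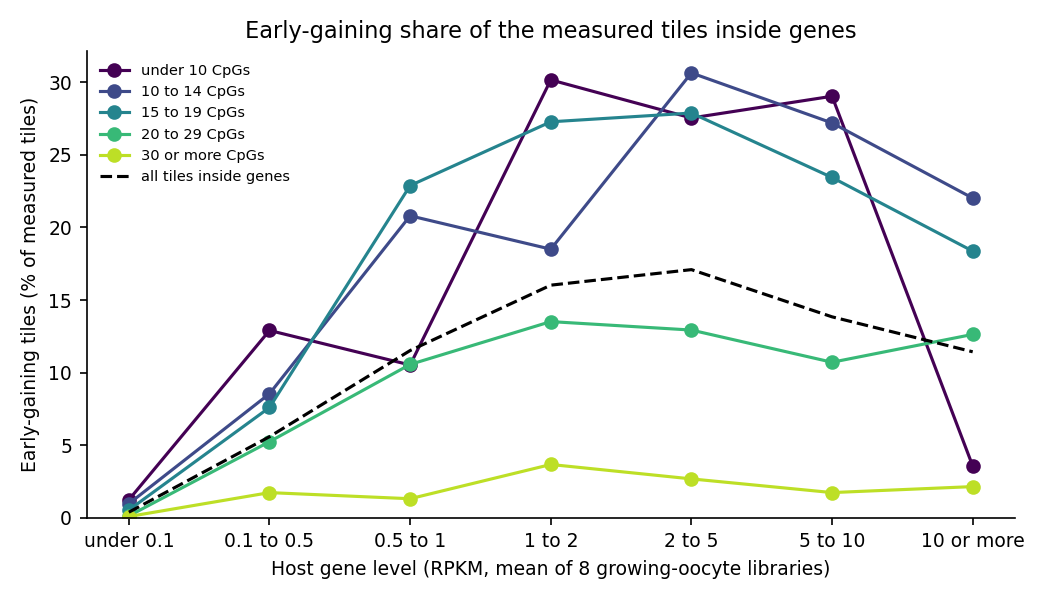
Early-gaining share (%) of the measured tiles inside genes, against the host gene's level (RPKM, mean of the 8 growing-oocyte libraries), with a line for each range of CpG number and a dashed line for all tiles. The dashed line is at 0.39% below 0.1 RPKM and at 17.1% between 2 and 5 RPKM.

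Once a tile was early-gaining, its level had little relation to the RNA of its host. The median PBAT level of early-gaining tiles lay between 66.6% and 72.0% in every range of host RPKM, and host RPKM on a log2(RPKM + 0.1) scale correlated with the 60–65 μm level across tiles at r = -0.10 (rho = -0.09). The 12 tiles inside genes below 0.1 RPKM had a median PBAT level of 71.1%. Their genes, named after their values were seen, included Oprl1, which encodes the nociceptin receptor, and Tcf7l2, a transcription factor gene of Wnt signalling.

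Most hosts held a single early-gaining tile. There were 489 hosts with 1 tile, 56 with 2, 13 with 3 and 4 with more, and 407 of the 562 (72.4%) also held a low tile, as did 10125 of the 10902 hosts of all measured tiles. Gm20388, a locus annotated over 4.4 Mb of chromosome 8 (chr8:119910841-124345722), had 5, but these were only 5 of its 141 measured tiles, and by GENCODE all 5 also lay in other genes. Anks1, which encodes an ankyrin-repeat adaptor, had 4 of 6, with 60–65 μm levels of 64.9% to 82.9%. Dym, which encodes the Golgi-associated protein dymeclin, also had 4 of 6, at 58.4% to 68.9%. Zc3h13, whose product belongs to the RNA m6A methylation complex, had 4 of 5, at 67.4% to 77.6%. Anks1 was at 1.65 RPKM at 10–30 μm as the mean of A and B, Zc3h13 at 4.18 and Dym at 12.1.

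The highest level at 60–65 μm was in an intron of Hace1, which encodes a ubiquitin ligase (tile chr10:45632501-45633000). It had 4.66% and 9.39% at 40–45 μm, 62.2% and 53.4% at 50–55 μm, then 97.3% and 88.2% in the 60–65 μm libraries. PBAT gave 86.4%. Pooling its 59 PBAT calls gave 84.7% (interval 73.5% to 91.8%). A and B at 60–65 μm were 9 points apart. Next came an intron of Crocc, the gene of the ciliary rootlet protein rootletin (chr4:141022001-141022500), with 91.4% and 90.8% at 60–65 μm and 74.5% in PBAT. A coding exon of Nat6, which encodes an N-acetyltransferase (chr9:107583001-107583500), had 89.5% and 89.1%, and 84.8% in PBAT. Rpn1, whose product is a subunit of the oligosaccharyltransferase, had 87.3% and 90.1% in a coding exon, and Ino80d, a gene of the INO80 chromatin remodelling complex, had 91.2% and 86.0% in an intron. Host levels ranged widely among them, from 0.21 RPKM for Crocc to 12.7 RPKM for Rpn1 at 10–30 μm.

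At the other end, a coding exon of Ahdc1, which encodes an AT-hook DNA-binding protein (chr4:133063001-133063500), had 37.2% and 26.5% at 50–55 μm and only 42.5% and 41.2% at 60–65 μm. PBAT gave 71.1% for it (291 calls, pooled interval 62.1% to 72.8%). PBAT and RRBS thus differed by nearly 30 points in this tile, far more than A and B did. Sash1, the gene of a scaffold protein with SH3 and SAM domains, had 42.4% and 42.9% at 60–65 μm and 53.5% in PBAT (chr10:8725501-8726000, coding exon). In Tead3, which encodes a transcription factor of the Hippo pathway, A and B at 60–65 μm were at 32.9% and 54.1%, and the level in A was hardly above the 28.4% and 31.8% of 50–55 μm. Tifab, a gene of a TRAF-interacting forkhead-associated protein, had 49.7% and 35.7% in an intron, and Incenp, which encodes a subunit of the chromosomal passenger complex, had 49.8% and 37.4% in a coding exon. In both, as in Tead3, A and B differed by over 12 points.

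Of 36 genes listed for maternal gDMRs, 34 were in the RNA table and their spans and starts held 63 measured tiles. Of these 7 were early-gaining, in 6 genes, since 1 tile lies in both H13 and Mcts2, and 26 were low. Slower tiles numbered 7 when counted gene by gene, where a tile shared by genes counts for each. Over all measured tiles 2.47% were early-gaining, 2.16% slower and 83.2% low, and of the tiles inside genes 7.83% were early-gaining. The H13 and Mcts2 tile (chr2:152687001-152687500), centred 215 bp from the start of Mcts2, an imprinted retrogene within the signal peptide peptidase gene H13, had 3.49% and 1.02%, then 27.6% and 31.2%, then 60.2% and 60.8%, with 61.5% in PBAT. It held 31 CpGs, against the median of 15. A and B were within 4 points of each other at each class.

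In Kcnq1, a potassium channel gene whose intron holds the start of the imprinted antisense RNA Kcnq1ot1, 3 of 4 measured tiles were early-gaining. The nearest to that start lay 1299 bp from it, within Kcnq1ot1 (chr7:143295001-143295500), and had 45.2% and 48.5% at 60–65 μm and 59.1% in PBAT. The others, at chr7:143325001-143325500 and chr7:143380501-143381000, had 68.2% and 71.2%, and 81.3% and 82.0%. The tile by Kcnq1ot1 was thus the lowest of the 3 in every 60–65 μm library. It also had more CpGs, 25 against 18 and 19.

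A tile of Gnas, which encodes the stimulatory G protein alpha subunit (chr2:174300501-174301000), 5314 bp from the start of the antisense gene Nespas, had 56.5% and 59.7% at 60–65 μm. In Trappc9, a gene for a vesicle trafficking complex, a tile 107 bp from the start of the pseudogene Gm3150 had 67.9% and 65.9%, and 87.3% in PBAT. In an intron of Socs5, which encodes a suppressor of cytokine signalling, the levels were 63.8% and 73.1%. One further tile (named after its values were seen) lay in an intron of Gpr1, 63 bp from the start of the noncoding gene Platr12, with a mean of 74.7% at 60–65 μm.

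The study itself amplified 5 loci as early-methylating, and in each of them an early-gaining tile overlapped the amplicon. These loci, in Pvrl1, Rapgef2, Smarca2, Atxn1 and Shank2, were picked by the study from these same libraries and are not independent evidence. Their 60–65 μm levels were 57.8% and 64.3% in Pvrl1, a cell adhesion gene, and 68.1% and 70.98% in Rapgef2, a gene for an activator of Rap GTPases. Smarca2, a gene of the SWI/SNF chromatin remodelling complex, had 89.0% and 80.6%. Atxn1, the gene of ataxin-1, had 63.7% and 53.5%, and Shank2, the gene of a postsynaptic scaffold, had 63.1% and 64.3%. In Smarca2 the adjoining tile, also under the amplicon, missed the rule with 37.3% and 15.5% at 50–55 μm, yet it had 73.1% and 73.4% at 60–65 μm.

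The limits of 10% and 25% do not mark a gap in the data. Just inside 10% at 40–45 μm were tiles of Trmt6, a tRNA methyltransferase gene, at 9.93% and of Pfkm, a phosphofructokinase gene, at 9.81%, and just outside were tiles of Gnl1 and Palld, both at 10.02%. Just inside 25% at 50–55 μm were tiles of Chtf18, a gene of sister chromatid cohesion, and of Shank2, both at 25%, and just outside were a tile without a host at 24.99% (chr8:111860501-111861000) and one of Zc3h11a at 24.98%. For 249 early-gaining tiles the lower 50–55 μm value was between 25% and 30%, and 264 other tiles had it between 20% and 25%. At least 25% in only 1 of the 50–55 μm libraries was found for 721 tiles.

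The tiles of library A and of library B differed at 60–65 μm. The 247 tiles that reached it in A alone had medians of 58.8% and 59.9% at 60–65 μm and 65.5% in PBAT, and 92.7% lay inside genes. The 474 that reached it in B alone had 28.5% and 31.5%, with 35.1% in PBAT and 76.2% inside genes. Choosing without library A gave 1166 tiles with a median 60–65 μm level of 59.3% and a PBAT median of 62.9%. Choosing without library B gave 1413 of 34366 measured tiles, with 64.7% and 69.2%.

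RNA of the host genes was compared between successive size classes with limma, fitted to log2(RPKM + 0.1) over all 10518 genes that passed a filter of 0.5 RPKM in at least 2 libraries, with Benjamini-Hochberg adjustment over these genes and a threshold of 0.05. Of the 562 hosts, 502 passed the filter, and the hosts that did not were those with low levels. In bulk pools more RNA per oocyte and more oocytes with the RNA cannot be told apart. From 10–30 to 40–45 μm, before these tiles gained methylation, 88 hosts rose (17.5% of those tested, against 14.9% of all genes tested) and 14 fell (2.79%, against 8.59%). The median log2 difference was 0.14 over the hosts and 0.03 over all genes. The total of 102 fell to 39 without library A of 40–45 μm (38 up, 1 down), to 58 without library B of 40–45 μm and to 51 without library A of 10–30 μm, and was 162 without library B of 10–30 μm. The calls over all genes moved in the same directions, from 1562 up and 903 down to 688 and 269, to 1181 and 559 and to 999 and 265, and to 1792 and 1032. Without scaling the libraries to each other, 53 hosts and 1088 of all genes rose and 30 hosts and 1521 of all genes fell, and the median over all genes moved from 0.03 to -0.07, so the balance of rises and falls depended on the scaling in the hosts and over all genes.

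The largest rise in this step was that of Atxn1, a host of 3 early-gaining tiles. Its RPKM values were 0.34 and 0.48 at 10–30 μm, 1.45 and 1.36 at 40–45 μm, 2.59 and 2.78 at 50–55 μm, with 3.71 and 3.10 in the 60–65 μm libraries. The first step was a log2 difference of 1.66 (SE 0.14, limma adjusted p = 0.000563) and the second one of 0.85 (adjusted p = 0.0172). Pecam1, an adhesion molecule gene, followed with 1.37 (SE 0.12, adjusted p = 0.000626), then Lrp1, a lipoprotein receptor gene (1.30), Sh2d3c, a signalling adaptor gene (1.21), and Slc4a8, a bicarbonate transporter gene (1.20). For these 5 genes no 10–30 μm library overlapped a 40–45 μm library. Pecam1 is also a marker of endothelium. The other 4 of 5 markers fixed for blood and endothelium, Ptprc, Hbb-b1, Cdh5 and Hba-a1, were below 0.5 RPKM in all 8 libraries, and the list summed to 0.63 to 4.80 RPKM, most of it Pecam1.

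The largest falls were small. Insr, the insulin receptor gene, went from 0.80 and 1.12 RPKM to 0.39 and 0.62 (log2 difference -0.73, SE 0.20, limma adjusted p = 0.0346). Mgmt, the gene of a DNA repair methyltransferase, went from 15.02 and 11.82 to 8.23 and 8.38 RPKM (-0.57) and on to 5.57 and 5.38 at 50–55 μm (-0.63). Vps33a, a gene of endosome fusion, fell by 0.65 on the log2 scale, Casp6, a caspase gene, by 0.62 and Sdad1 by 0.50.

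From 40–45 to 50–55 μm, the step in which these tiles gained methylation, 22 hosts rose (4.38%, against 5.23% of all genes tested) and 7 fell (1.39%, against 3.64%). The median log2 difference was 0.10 over the hosts and -0.01 over all genes. Lgr6, a receptor gene of R-spondins, had the largest rise, from 0.46 and 0.41 to 1.35 and 1.23 RPKM (log2 difference 1.35, SE 0.19, limma adjusted p = 0.0152). Pfkp, a glycolytic phosphofructokinase gene, had 0.98, Pecam1 0.97, the F-box gene Fbxo17 0.95 and Lef1, a transcription factor gene of Wnt signalling, 0.93. Fbxo17 (0.30 and 0.29 to 0.64 and 0.73 RPKM) and Lef1 (0.20 and 0.31 to 0.56 and 0.61) were below 0.5 RPKM at 40–45 μm. Pfkp (0.15 and 0.12 to 0.40 and 0.34) was below it in both classes and passed the filter only through the 60–65 μm libraries. These rises lie near the floor. Dpf3, a gene of the SWI/SNF complex, had the largest fall, from 7.89 and 8.73 to 4.81 and 5.39 RPKM (-0.73, SE 0.10, adjusted p = 0.0147). It was followed by Mgmt, by Hps1, a gene of lysosome-related organelle formation (-0.51), by the nucleoside transporter gene Slc28a1 (-0.48) and by Fdx1l, a ferredoxin gene (-0.45). The count rests on single libraries and on the filter. Without the filter on low RPKM 11 of 560 hosts were called, beside 372 up and 148 down of 20052 genes. With the other libraries as they were, 0 hosts were called without library A of 50–55 μm or without library B of 40–45 μm, 7 without library B of 50–55 μm, 11 without library A of 40–45 μm or either 60–65 μm library, and 60 without either 10–30 μm library. Over all genes too, 0 were called without library A of 50–55 μm or without library B of 40–45 μm, 187 up and 66 down without library B of 50–55 μm, and 843 up and 781 down without library A of 10–30 μm.

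From 50–55 to 60–65 μm limma called 0 hosts in either direction, as it did for 0% of all genes tested. At an unadjusted p under 0.05, 25 of the 502 hosts had a positive and 20 a negative difference, as did 684 and 766 of all 10518 genes.

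**Figure D5:**
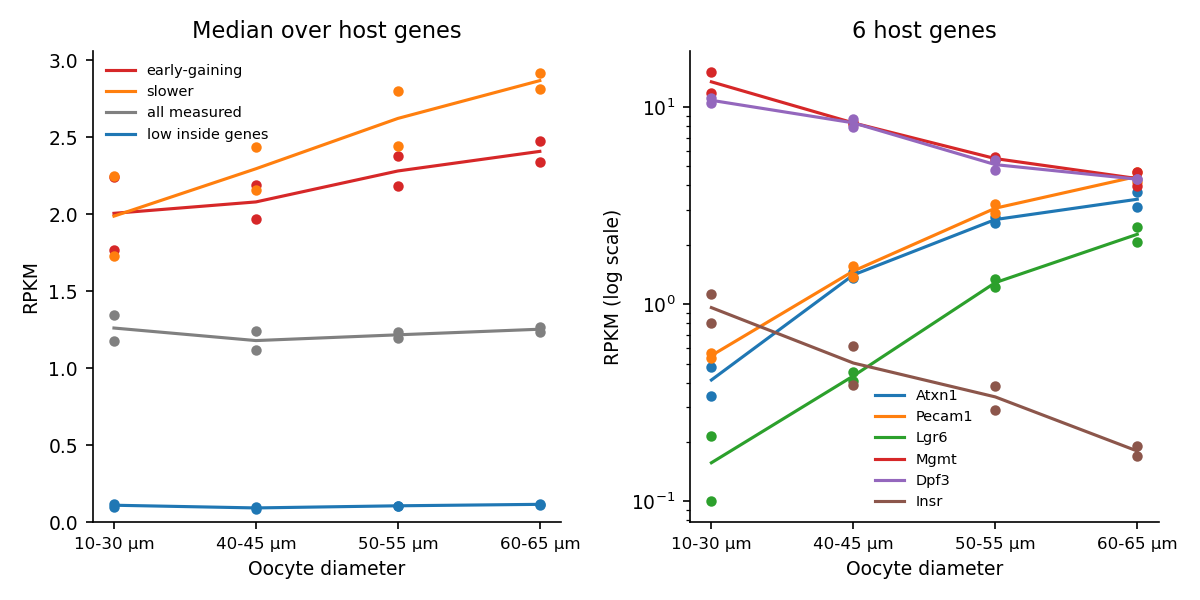
RPKM by oocyte diameter, with dots for libraries A and B and lines through their means. Left, medians over the host genes of early-gaining, slower, all measured and low tiles inside genes. Right, on a log axis, 6 host genes, of which Atxn1, Pecam1 and Lgr6 rise and Mgmt, Dpf3 and Insr fall.

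Of 9 genes of the methylation machinery, 1 rose and 1 fell at each of the steps up to 50–55 μm, and 7 did not pass the test at any step. Dnmt3l, the cofactor of DNMT3A, was at 0.83 and 0.89 RPKM at 10–30 μm, 3.65 and 2.70 at 40–45 μm, 6.21 and 5.35 at 50–55 μm, with 11.3 and 8.25 in the 60–65 μm libraries. Its log2 differences were 1.86 (SE 0.19, limma adjusted p = 0.000847), 0.82 (adjusted p = 0.0365) and 0.69 (adjusted p = 0.182). Kdm5b, the gene of a histone H3 lysine 4 demethylase, fell from 1.75 and 2.04 RPKM through 0.57 and 0.75 to 0.34 and 0.41 (adjusted p = 0.000957 and 0.0231). Dnmt3a itself lay between 2.22 and 3.76 RPKM in the 8 libraries, Setd2, which encodes an H3 lysine 36 methyltransferase, between 3.35 and 6.52, and Dnmt1, the maintenance methyltransferase gene, between 328.1 and 485.7.

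The libraries had the profile of oocytes. The 11 oocyte markers summed to 2822 to 3758 RPKM in the 8 growing-oocyte libraries. Of the granulosa markers 7 of 10 were below 0.5 RPKM in all 8, and the list summed to 2.07 to 7.78, rising with size through Nr5a2 and Cyp19a1. The theca and stroma list, with 5 of 8 below 0.5 RPKM in all 8, summed to 0.54 to 4 RPKM and was highest at 10–30 μm. The part of these markers in the host gene changes was not tested.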

How the data were processed

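The 16 samples were taken as labelled. For RRBS and PBAT the authors deposited, per CpG cytosine, the percent methylation with the count of methylated and of unmethylated calls. The submitters' processing notes name Trim Galore 0.2.8 and 0.3.5, Bismark 0.10.0 and 0.14.0, TopHat2 2.0.9 and GRCm38. RRBS duplicates were not removed, so repeated reads of 1 molecule can count as separate calls. The authors' RNA table, whose columns are headed as read counts, held RPKM values, and whole counts and hence depth are unknown there. Levels were computed again from the calls, strands apart, and averaged per 500-bp tile. In PBAT a tile needed 5 cytosines with at least 1 call. A host was the gene of the RNA table whose span held the tile's centre. Exons came from GENCODE. RPKM values were scaled by a trimmed mean and fitted with limma 3.58.1 (R 4.3.3), as log2(RPKM + 0.1) with a variance trend and 1 mean per class. On simulated data, for a comparison like 40–45 to 50–55 μm over 10075 genes, it recovered 163 of 193 genes changed 2-fold and made 4 false calls. The simulated noise was independent between libraries. Same-letter deviations of the real libraries correlated at up to 0.67, so these rates may not hold for them. Python 3.11.15, numpy 2.4.6, pandas 2.3.3 and matplotlib 3.10.9 were used. The members and lists were chosen with earlier results of these data known. Named were the 5 highest and 5 lowest tiles at 60–65 μm, tiles in listed maternal gDMR genes and in the study's amplicons, the genes with most tiles, the tiles at each limit, and the 5 hosts with the largest called rise and fall per RNA step. Tiles named otherwise were chosen after their values were seen. Alternatives changed the calls per cytosine, the cytosines per tile, pooling, the grid, the strands, the RPKM filter, pseudocount and scaling, a replicate block, and each library left out in turn.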

Additional observations from a re-analysis of the deposited data

Results flagged for a closer look

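In the RRBS library A of 50–55 μm oocytes, the positions with 1 to 4 calls, which no tile level uses, had a mean methylation of 50.1%. The highest such value in the 40–45 μm libraries, the class before methylation arrives, was 16.4%. Within the early-gaining tiles these shallow positions were at 51.8% in that library and at 34.7% in library B of the same class.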

How the results depend on the processing

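Of 69 alternative values for the number of tiles, their 60–65 μm level, PBAT level, CpG number, host RPKM and share in genes, 54 stayed within a tolerance. It was 1.5 times for the number, 1 SD between A and B for the 60–65 μm level (0.95 points) and host RPKM (0.13), 0.26 points for PBAT from the counting error of its calls, 1 CpG, and the Wilson interval for the share. Of 11 for the share with both 60–65 μm libraries above both 50–55 μm libraries, 4 stayed within its Wilson interval and 7 moved. Requiring 10 covered cytosines left 95 tiles, with medians of 65.5% at 60–65 μm, 66.2% in PBAT, 25 CpGs and 1.98 host RPKM, and 96.8% in genes. Summing the strands gave a PBAT median of 70.3%. Leaving out each RRBS library in turn gave 695 to 1413 tiles, medians of 59.3% to 67.2% at 60–65 μm, 62.9% to 70.8% in PBAT, 15 to 16 CpGs and 1.93 to 2.39 host RPKM, 89.7% to 95.1% in genes, and 73.0% to 99.1% with both 60–65 μm libraries above both 50–55 μm libraries. The lowest levels, host RPKM and shares came without library A of 50–55 μm (1166 tiles), and the 1413 tiles without library B. Each of these sets included the 691 tiles. With 10 calls per cytosine 482 of 516 tiles were shared with the 691, with pooled calls 588 of 710 and with strands summed 592 of 631. For host genes, 33 of 48 alternative counts stayed within 1.5 times. Leaving out each RNA library in turn gave 39 to 162 called hosts from 10–30 to 40–45 μm, 0 to 60 from 40–45 to 50–55 μm and 0 to 0 from 50–55 to 60–65 μm. Without the filter on low RPKM 11 hosts were called from 40–45 to 50–55 μm, against 29. With the library letter as a replicate block the counts of called hosts were 142, 58 and 5 for the successive steps, and over all genes 2090 up and 1258 down, 1003 and 906, and 149 and 81. With each library left out, the calls over all genes moved with those of the hosts in the first 2 steps, down to 688 and 269 and to 0. The letters did not pair the samples throughout, since the correlations of same-letter deviations ran from -0.22 to 0.67 and the labels do not tie a letter to mice or days. The depth limits single tiles most in PBAT, where some rested on 10 calls, and the RNA table gives no depth.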
